A study of Mus musculus with 2 samples.

Results

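The genes described here are 32 genes of glucose uptake, glycolysis and the response to low oxygen, out of 28692 genes counted in regulatory T cells (Tregs) of the mouse spleen. They were chosen by name: 16 glycolytic enzymes, 4 transporters of glucose and lactate, 3 regulators of glycolytic flux, 3 oxygen sensing genes and 6 targets of hypoxia. A member with 20 or more UMIs over both libraries counted as measured, where a UMI (unique molecular identifier) stands for 1 captured transcript, and 29 of the 32 members were. The measured member nearest that minimum was Pfkm, with 6 UMIs in one library and 15 in the other. Those below it were Hk2 with 13 and 5 UMIs, Pfkfb4 with 6 and 3, and Vegfa with 0 in both.

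Tregs are the CD4 T cells, defined by the transcription factor Foxp3, that hold immune reactions in check. They came from male B6 Pparg-Tdt.Foxp3-Gfp mice, 8 weeks of age, in which a red fluorescent protein reports Pparg, the gene of the lipid-sensing nuclear receptor PPARg, and a green one reports Foxp3. Spleen cells of 2 or 3 mice were pooled and sorted, and single-cell 3′ libraries were made from Tregs low for PPARg (the PPARg-low library) and from Tregs without it (the PPARg-negative library). Both groups share strain, sex, age, organ and both reporter alleles, and each group is 1 library, so no test between groups was possible. All intervals are at 95% and cover counting error alone.

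With cells above a mitochondrial share of 10% removed, the PPARg-low library held 1619 cells and 2901710 UMIs and the PPARg-negative library 2633 cells and 5897260 UMIs. Median depth was 1517 and 2171 UMIs per cell, and the libraries shared 4 barcode sequences among these cells (5 before the filter). The libraries stood apart in ribosomal protein UMIs, 22.2% and 35.5% of all UMIs. Cells with under 20% of these, called ribosome-poor below, were 951 of 1619 (58.7%, exact binomial interval 56.3 to 61.2%) and 614 of 2633 (23.3%, 21.7 to 24.98%). Their median depth was 978 and 853 UMIs and their median mitochondrial share 6.80 and 6.92%, against 2294 and 2455 UMIs and 2.74 and 2.29% in the other, ribosome-rich cells. Results are therefore also given within each kind of cell. Of the markers of the labelled cell type, Foxp3 had 100 and 146 UMIs and was seen in 5.99 and 5.36% of cells, Ikzf2 had 6134 and 4658 UMIs and Cd3e 4294 and 4895. Of all 9 such markers 7 were higher in CPM by size in the PPARg-low library, while Il2ra was at 169 and 201 CPM (0.839, 0.754 to 0.933). Markers of other cells were scarce: those of B cells summed to 34.8 and 34.4 CPM (UMIs of a gene per 1000000 UMIs of the library or, for a subset of cells, of that subset), those of NK and CD8 T cells to 34.8 and 28.8 CPM with Ncr1 and Klra8 at 0, and those of erythroid cells and platelets to 13.1 and 1.87 CPM with Pf4 and Ppbp at 0. The myeloid markers summed to 279 and 148 CPM, of which Cst3, a protease inhibitor gene of many cell types, gave 268 and 145 CPM.

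Glycolysis splits glucose into pyruvate in the cytosol and yields ATP without oxygen. Glucose enters through GLUT transporters, is phosphorylated by hexokinase and committed by phosphofructokinase, and pyruvate is either reduced to lactate by lactate dehydrogenase, to leave through MCT transporters, or enters the mitochondria, a step that pyruvate dehydrogenase kinases hold back. When oxygen is scarce the factor HIF-1α, otherwise marked for destruction by prolyl hydroxylases, is stable and raises many of these genes. In T cells glycolysis is known to rise with activation and growth, and resting Tregs are known to rely more on the oxidation of fatty acids.

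In the PPARg-low library, 11 of the 29 measured members were higher by size than in the PPARg-negative library, a term that here needs a ratio of CPM of 1.5 or more with its interval above 1. These were 6 glycolytic enzymes, both lactate transporters, Hif1a, the prolyl hydroxylase gene Egln3 and the oxidoreductase gene Ero1l. That is 37.9% of the members, against 24.3% of all 9839 genes with 20 or more UMIs. A single member, the kinase gene Pdk1, was lower by size (3.45% of the members, against 4.38% of all genes). The median log2 ratio of the members was 0.32, and that of all genes was 0.29.

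The reference for scaling mattered for the lower calls. With ribosomal protein and mitochondrial UMIs left out of the totals, the median of all genes moved from 0.29 to 0.04. Then 9 members were higher by size, all of them among the 11, and 3 were lower: Pdk1, the enolase gene Eno1 and the stress gene Ddit4. Relative to the median of all genes, 8 of the 11 stayed higher and the same 3 were lower. The share of higher among all called members was 91.7% with library totals, 75.0% without ribosomal and mitochondrial UMIs and 72.7% relative to the median. Of all genes, 2389 were higher and 431 lower with library totals, so called genes of any kind were mostly higher. All-gene counts under the other scalings are not given here.

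**Figure D1:**
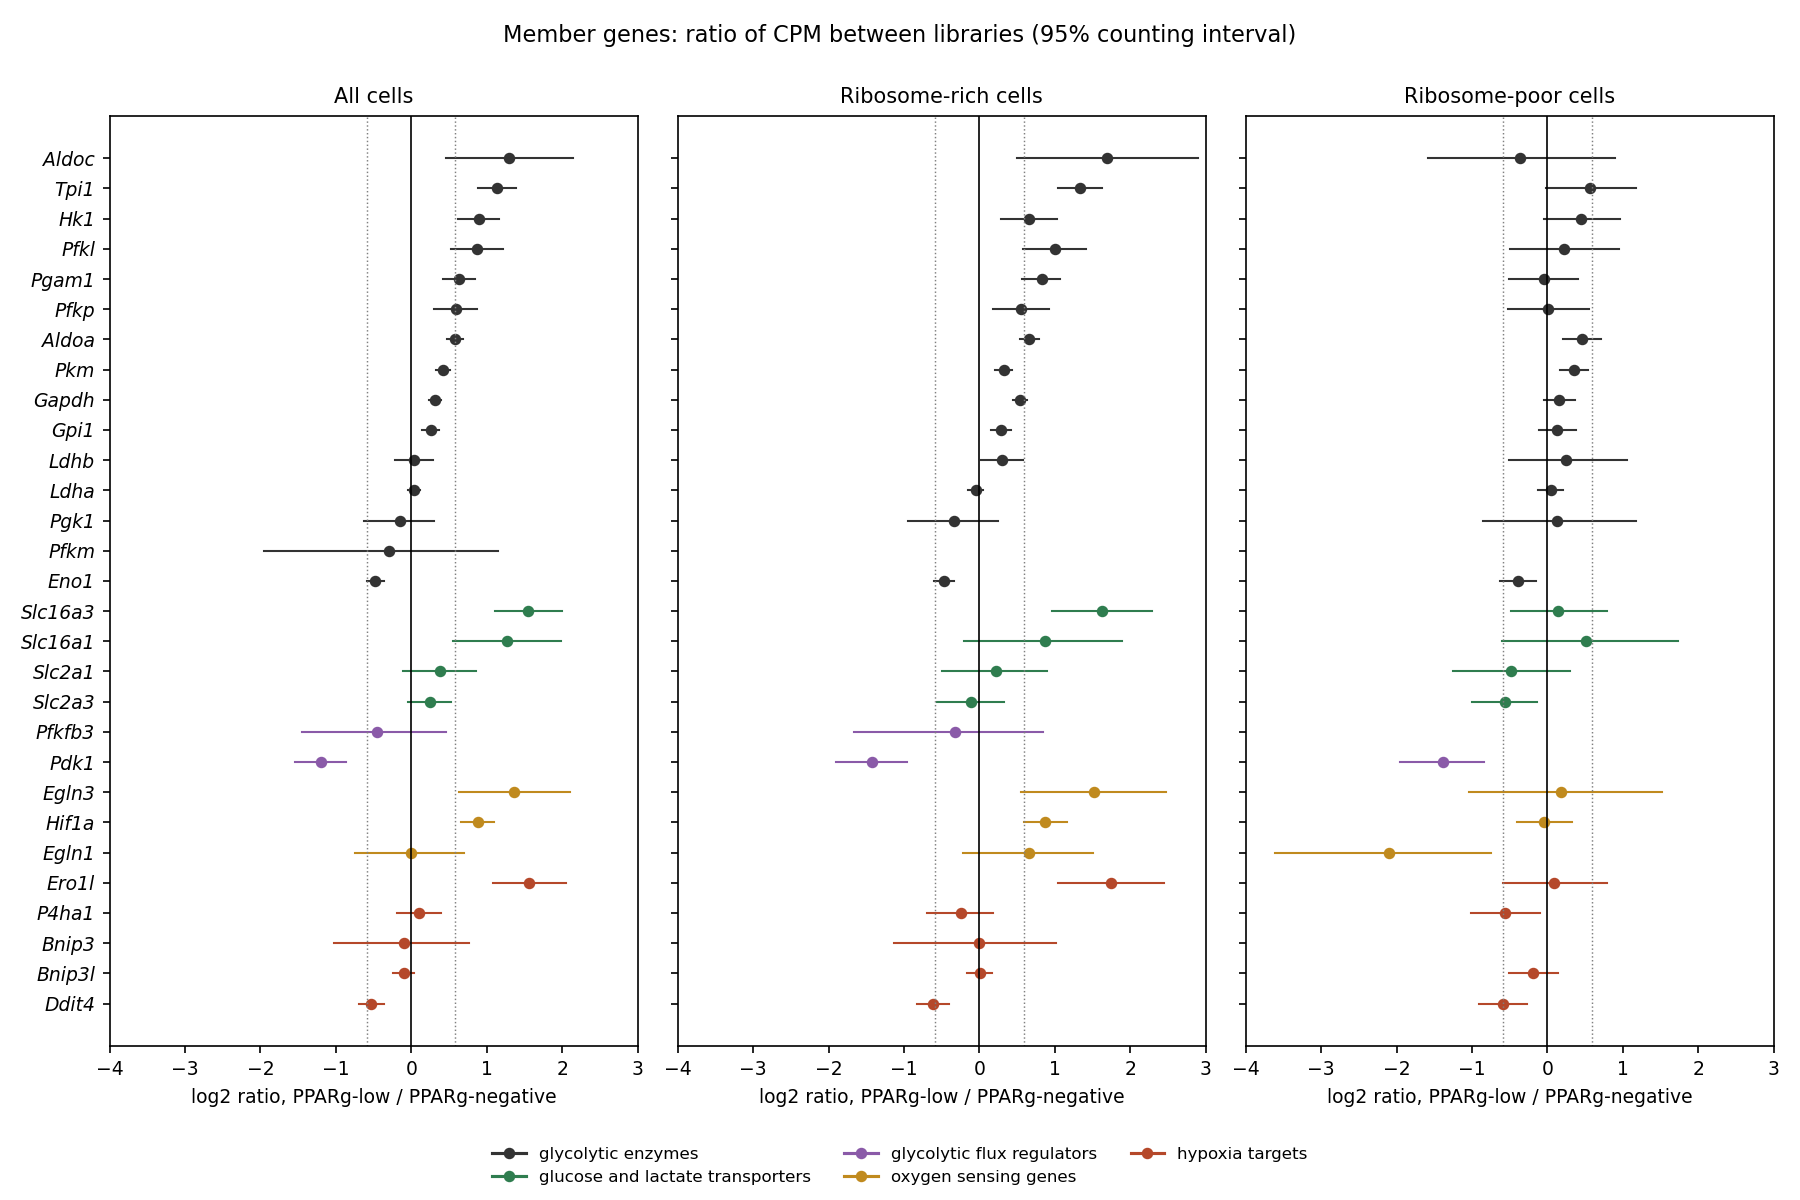
Log2 ratio of CPM, PPARg-low over PPARg-negative, of the measured members (points) with 95% counting intervals (lines), in all, ribosome-rich and ribosome-poor cells; dotted lines mark a ratio of 1.5 in each direction, and members under 20 UMIs in a set of cells are left out. In ribosome-poor cells no point lies right of the dotted line with its interval above 0, and Pdk1 lies left of it in all 3 panels.

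Of the 15 measured enzymes, 6 were higher by size (40%) and none was lower in PPARg-low cells, against 24.3% and 4.38% of all genes. The median log2 ratio of the enzymes was 0.42, and that of all genes was 0.29. Of the pair of hexokinase genes counted here, whose enzymes phosphorylate glucose at the first step, Hk1 gave nearly all UMIs, at 73.1 CPM in PPARg-low and 39.3 CPM in PPARg-negative cells. The ratio was 1.86 (1.53 to 2.25). Hk2, the hexokinase known for its induction in activated T cells, gave 5.78% and 2.11% of the UMIs of the pair, with intervals of 3.11 to 9.68% and 0.688 to 4.85%. Gpi1, which turns glucose 6-phosphate into fructose 6-phosphate, was at 355 and 297 CPM, a ratio of 1.20 (1.11 to 1.29) that did not reach 1.5.

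Phosphofructokinase commits the sugar to glycolysis, and 2 of its 3 genes, the liver and platelet types Pfkl and Pfkp, made up nearly all its UMIs. Pfkl was at 47.2 and 25.8 CPM (ratio 1.83, 1.44 to 2.32). Pfkp was at 61.0 and 40.5 CPM, and its ratio of 1.51 (1.23 to 1.84) lay just past the threshold. The muscle type Pfkm, at 2.07 and 2.54 CPM, gave 1.88% and 3.69% of the UMIs of the family. Pfkl took 42.8% of them in the PPARg-low library and 37.4% in the PPARg-negative library, with intervals that overlapped (37.3 to 48.4 and 32.7 to 42.3%).

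Aldolase splits the 6-carbon sugar. Its main gene Aldoa was at 412 and 276 CPM, a ratio of 1.49 (1.38 to 1.61) just short of the threshold. The minor gene Aldoc was at 9.99 and 4.07 CPM, from 29 and 24 UMIs, and was higher by size at 2.46 (1.38 to 4.41). Triose phosphate isomerase, which interconverts the products, had the largest ratio of the enzymes with 100 or more UMIs: Tpi1 was at 93.7 CPM in PPARg-low and 42.6 CPM in PPARg-negative cells. Its ratio of 2.20 (1.85 to 2.63) was followed at a later step by Pgam1, phosphoglycerate mutase, at 111 and 71.6 CPM (1.55, 1.34 to 1.80).

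The other enzymes of the payoff phase, around Pgam1, did not reach 1.5. Gapdh, the dehydrogenase that also serves as a common reference gene, was at 688 and 552 CPM (1.25, 1.18 to 1.32). Pgk1, the next enzyme, was at 19.99 and 22.2 CPM (0.900, 0.649 to 1.23). Eno1, encoding enolase, went the other way, with 310 and 432 CPM and a ratio of 0.717 (0.664 to 0.774) over all cells. Enolase and Gapdh counts carry a further limit: 75.2% of the 50-base words in the last 500 bases of the Eno1 transcripts also occur in Eno1b, and 62.3% of those of Gapdh occur in Gm15294 or Gm3839, so that how the counting placed such reads bears on both.

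At the end of the pathway, Pkm, pyruvate kinase, was at 576 and 431 CPM (1.34, 1.26 to 1.42). Ldha, which makes lactate from pyruvate, was among the most counted members and nearly level, at 670 and 654 CPM (1.02, 0.969 to 1.08). Its partner Ldhb, whose subunit favours the return of lactate to pyruvate, was at 68.9 and 67.3 CPM, also with a ratio of 1.02 (0.859 to 1.22). Ldhb was 9.33% of lactate dehydrogenase UMIs in both libraries.

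Summed over the 15 measured enzymes, glycolytic transcripts came to 3497 CPM in PPARg-low and 2957 CPM in PPARg-negative cells, a ratio of 1.18 (1.15 to 1.21) with library totals. On the log2 scale this sum ratio was 0.24, but -0.015 without ribosomal and mitochondrial UMIs and -0.050 relative to the median of all genes, so its direction rested on the scaling. The same 5 genes, Gapdh, Ldha, Pkm, Aldoa and Eno1, held 75.8% of the enzyme UMIs in the PPARg-low library and 79.3% in the PPARg-negative library. Eno1 made up 8.85% of them in the PPARg-low and 14.6% in the PPARg-negative library, and Aldoa 11.8% and 9.34%, shares that do not depend on the library totals.

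Glucose carriers were close to level while lactate carriers were not. The glucose transporter genes Slc2a1 (GLUT1) and Slc2a3 (GLUT3) were at 20.7 and 54.8 CPM in PPARg-low and 15.9 and 46.3 CPM in PPARg-negative cells. Their ratios were 1.30 (0.922 to 1.81) and 1.18 (0.967 to 1.44), both with intervals that held 1. Slc2a3 gave 72.6% of the UMIs of the pair in the PPARg-low library and 74.4% in the other.

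Both monocarboxylate transporters that carry lactate were higher by size in PPARg-low cells. Slc16a1 (MCT1), which works in either direction, was at 13.4 and 5.60 CPM, from 39 and 33 UMIs (2.40, 1.47 to 3.94). Slc16a3 (MCT4), the exporter of highly glycolytic cells, was at 36.2 and 12.4 CPM (2.92, 2.15 to 3.997). At the lactate step, then, both carriers passed 1.5 and neither enzyme gene, Ldha or Ldhb, did.

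Of the flux regulators, Pdk1 was the member with the largest difference in the other direction. The kinase phosphorylates pyruvate dehydrogenase and so keeps pyruvate out of the mitochondria. Pdk1 was at 31.4 CPM (25.2 to 38.5) in PPARg-low cells and 71.7 CPM (65.1 to 78.9) in PPARg-negative cells. The ratio was 0.437 (0.345 to 0.550), or a level 2.29 times as high in the PPARg-negative library. Pfkfb3, which makes the activator of phosphofructokinase, was at 4.82 and 6.61 CPM with an interval that held 1 (0.730, 0.366 to 1.37).

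The oxygen sensing and hypoxia genes differed in both directions. Of the 8 measured, 3 were higher (37.5%) and none was lower by size with library totals, against 24.3% and 4.38% of all genes. Their median log2 ratio was 0.05 and that of all genes 0.29. Their summed level was 576 and 568 CPM, a ratio of 1.01 (0.955 to 1.07) with library totals, but 0.848 (0.799 to 0.899) without ribosomal and mitochondrial UMIs and 0.828 (0.780 to 0.878) when set against the all-gene median. Hif1a, the oxygen-regulated subunit of HIF-1, was at 115 CPM in PPARg-low and 62.2 CPM in PPARg-negative cells (1.84, 1.59 to 2.14). Of the hydroxylases that mark HIF-1α, Egln3 was at 13.1 and 5.09 CPM, from 38 and 30 UMIs (2.57, 1.55 to 4.30), while Egln1 was at 8.96 and 8.99 CPM (0.997, 0.598 to 1.62). Egln3 was 59.4% (46.4 to 71.5%) of the UMIs of this pair in PPARg-low and 36.1% (25.9 to 47.4%) in the other library, and these intervals just overlapped.

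Among the 5 measured hypoxia targets, Ero1l alone was higher by size. The enzyme forms disulfide bonds in the endoplasmic reticulum. Ero1l was at 32.1 CPM (25.9 to 39.3) and 10.9 CPM (8.36 to 13.9), a ratio of 2.95 (2.13 to 4.13). The other targets had ratios from 0.692 to 1.08. Bnip3l, a receptor for the removal of mitochondria, was at 210 and 226 CPM (0.931, 0.844 to 1.03), and its paralog Bnip3 had only 17 and 37 UMIs (0.934, 0.493 to 1.70). P4ha1, which hydroxylates collagen prolines, was at 51.7 and 48.0 CPM (1.08, 0.878 to 1.32). Ddit4, an inhibitor of mTOR signalling that stress and glucocorticoids also raise, was at 139 and 201 CPM, and its ratio of 0.692 (0.617 to 0.776) lay just short of the threshold, past which it was under both other scalings. Vegfa, a standard target of HIF-1, had 0 UMIs in both libraries, which allows up to 1.27 CPM in the PPARg-low and 0.626 CPM in the PPARg-negative library at the upper end of the exact interval.

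Promoters of some of the called members are shown because HIF-1 is known to bind a short core motif, ACGTG or GCGTG. The first of these is also part of the CACGTG box that other factors bind. Each window runs from 250 bases before to 50 bases after a start site in the RefSeq annotation of GRCm38.p6, is written 5′ to 3′ on the strand of the gene, and has in capitals each match to either motif on either strand. The windows are Slc16a3 at chr11:120948817-120949116 (plus strand), the first of 2 windows of Pdk1 at chr2:71872974-71873273 (plus strand), Hif1a at chr12:73907617-73907916 (plus strand), Egln3 at chr12:54203825-54204124 (minus strand) and Tpi1 at chr6:124814109-124814408 (minus strand).
Slc16a3: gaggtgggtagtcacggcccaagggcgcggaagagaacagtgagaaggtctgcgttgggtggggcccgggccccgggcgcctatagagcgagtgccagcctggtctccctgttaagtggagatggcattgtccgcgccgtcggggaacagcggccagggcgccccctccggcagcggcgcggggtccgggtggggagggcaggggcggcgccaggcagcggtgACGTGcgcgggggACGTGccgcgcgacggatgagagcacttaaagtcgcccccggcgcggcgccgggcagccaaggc
Pdk1: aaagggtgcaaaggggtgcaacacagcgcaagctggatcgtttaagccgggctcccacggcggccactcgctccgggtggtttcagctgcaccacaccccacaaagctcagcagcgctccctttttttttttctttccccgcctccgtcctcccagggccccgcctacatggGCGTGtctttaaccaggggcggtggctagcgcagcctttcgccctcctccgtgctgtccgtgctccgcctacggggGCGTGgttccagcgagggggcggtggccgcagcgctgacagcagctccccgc
Hif1a: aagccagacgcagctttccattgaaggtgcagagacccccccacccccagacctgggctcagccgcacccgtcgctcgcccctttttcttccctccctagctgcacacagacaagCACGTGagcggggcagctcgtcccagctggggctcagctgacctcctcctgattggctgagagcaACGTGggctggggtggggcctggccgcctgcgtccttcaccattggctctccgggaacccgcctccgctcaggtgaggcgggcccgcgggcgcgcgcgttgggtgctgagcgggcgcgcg
Egln3: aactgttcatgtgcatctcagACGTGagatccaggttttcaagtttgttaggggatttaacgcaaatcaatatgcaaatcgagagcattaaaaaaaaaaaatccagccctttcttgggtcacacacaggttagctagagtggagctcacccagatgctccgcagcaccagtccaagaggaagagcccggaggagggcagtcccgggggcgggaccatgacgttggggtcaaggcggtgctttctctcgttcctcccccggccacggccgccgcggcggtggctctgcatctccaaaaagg
Tpi1: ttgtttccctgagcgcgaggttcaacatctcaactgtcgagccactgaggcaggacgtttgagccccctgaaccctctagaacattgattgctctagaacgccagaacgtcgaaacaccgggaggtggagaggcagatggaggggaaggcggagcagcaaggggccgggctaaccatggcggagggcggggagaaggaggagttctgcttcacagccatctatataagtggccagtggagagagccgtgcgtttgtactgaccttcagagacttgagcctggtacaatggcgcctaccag
Slc16a3, which was higher, and Pdk1, which was lower, both had 2 matches, at positions 224 and 237 and at positions 173 and 249 from the first base of the window. Hif1a had 3, of which the matches at positions 116 and 117 are a single palindrome read on both strands. Egln3 had 1 match, at position 22, and Tpi1, with its ratio of 2.20, had none. The second window of Pdk1, not shown, also had none. Among called members whose windows are not shown, Slc16a1 had 5 matches, Pfkp 4, Pgam1 3 and Pfkl 1. Hk1 had 0 and 5 in its 2 windows, and Aldoc 3 and 1. Matches were common among the members whatever their direction: 27 of the 29 member genes with a window had 1 or more in any window (93.1%), as did 14 of 16 enzymes and 7 of 7 oxygen sensing and hypoxia genes with a window, against 46.7% of 27025 genes. Counted by window, the shares were 81.4% of 43 member windows and 43.8% of all 32851 windows. This background was not limited to genes measured here, and an enrichment was not tested. Slc2a3, Bnip3l and Ero1l were not matched to a window. A match is a description of these letters and not of binding.

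Within ribosome-rich cells alone, 10 of the 28 members measured there were higher by size and 2 were lower, against 17.2% and 3.84% of all 9254 genes. Of the 11 members that were higher over all cells, 9 were higher here too; Pfkp (1.47, 1.14 to 1.89) and Slc16a1 (1.83, 0.869 to 3.70) were not, and Aldoa (1.58, 1.45 to 1.73) was added. Tpi1 was at 104 and 41.2 CPM in these cells (2.51, 2.05 to 3.08), Slc16a3 at 23.5 and 7.63 CPM (3.07, 1.94 to 4.88) and Ero1l at 22.3 and 6.68 CPM (3.34, 2.06 to 5.43). The lower members were Pdk1 and Ddit4. The split did not make the libraries alike, as ribosomal protein UMIs were 29.0% and 38.3% of all UMIs in these cells. Without ribosomal and mitochondrial UMIs, Tpi1 was at 152 and 69.5 CPM, Hk1 at 81.4 and 59.2 and Aldoa at 641 and 466. The summed enzymes were then at 5263 and 4967 CPM, and the summed hypoxia genes at 786 and 910. Calls under that scaling are not given here for these cells.

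Within ribosome-poor cells none of the 26 members measured was higher by size, against 6.52% of all 7636 genes, and 3 were lower, against 5.12%. Every member that was higher over all cells had an interval that held 1 here. Nearest to level of these was Pfkp, at 71.9 and 71.6 CPM (1.004, 0.694 to 1.47). Hif1a, at 146 and 151 CPM (0.970, 0.753 to 1.26), and Pgam1, at 97.0 and 101 CPM (0.964, 0.705 to 1.33), came next. Ero1l was at 46.8 and 44.2 CPM (1.06, 0.662 to 1.72) and Slc16a3 at 55.4 and 50.3 CPM (1.10, 0.713 to 1.73). The intervals of Slc16a3 and Ero1l reached past 1.5. Tpi1 kept its direction without reaching the threshold, at 78.8 and 53.3 CPM (1.48, 0.991 to 2.25). So did Slc16a1 (1.42, 0.659 to 3.32), Hk1 (1.36, 0.964 to 1.95) and Pfkl (1.16, 0.712 to 1.93), among others, while Aldoc, Pgam1 and Hif1a fell below 1. The 3 lower members were Pdk1, Ddit4 and Egln1, the last from only 7 and 17 UMIs (0.234, 0.0821 to 0.594). The glucose transporter gene Slc2a3 (87.5 and 130 CPM) and the hydroxylase gene P4ha1 (79.7 and 117 CPM) had intervals below 1 without passing 1.5, at 0.675 (0.501 to 0.912) and 0.679 (0.496 to 0.931). A smaller number of UMIs stood behind these values, 1154486 and 656163.

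Pdk1 was lower in both kinds of cell, at 25.2 against 67.4 CPM in ribosome-rich cells (0.374, 0.267 to 0.512) and 40.7 against 107 CPM in ribosome-poor cells (0.382, 0.258 to 0.560). Ddit4 was also lower in each, at 129 against 197 CPM (0.656, 0.565 to 0.758) and at 154 against 232 CPM (0.666, 0.533 to 0.832). Eno1 kept a ratio between 0.717 and 0.764 in all 3 sets of cells without passing the threshold in any.

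**Figure D2:**
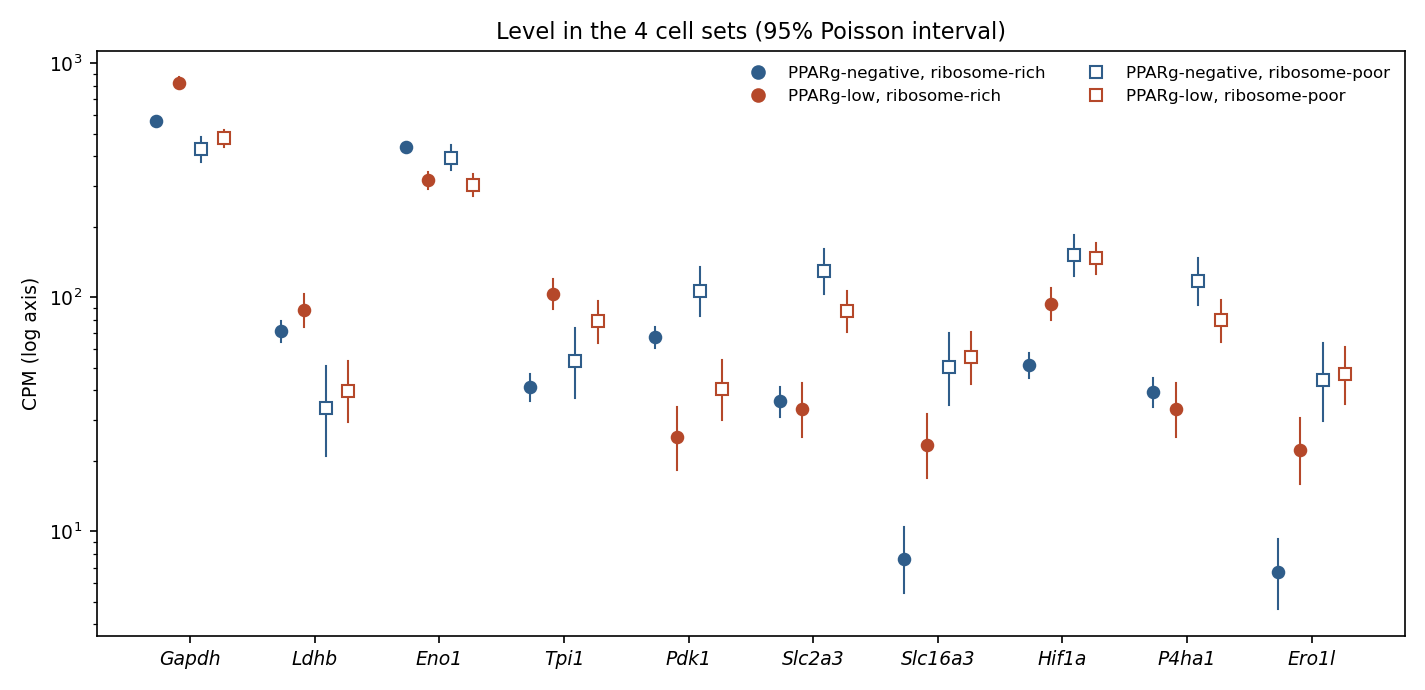
CPM on a log axis of 10 members in ribosome-rich (filled circles) and ribosome-poor cells (open squares) of the PPARg-negative (blue) and PPARg-low library (red), with 95% Poisson intervals. Slc16a3 and Ero1l are lowest in PPARg-negative ribosome-rich cells, at 7.63 and 6.68 CPM, and Pdk1 is lower in PPARg-low cells of both kinds.

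The members also differed between the kinds of cell within each library, a comparison in which both sets come from the same pool. All 4 transporters were higher in ribosome-poor cells of both libraries, Slc2a3 by 2.64 times in the PPARg-low library (1.89 to 3.71) and 3.61 times in the PPARg-negative library (2.76 to 4.69). P4ha1 was likewise 2.40 (1.71 to 3.39) and 2.99 times (2.27 to 3.90) as high. For Slc16a3 the factor was 2.36 (1.57 to 3.59) in the PPARg-low and 6.59 (4.03 to 10.7) in the PPARg-negative library, intervals that did not overlap, and for Ero1l it was 2.096 (1.36 to 3.25) and 6.62 (3.90 to 11.1), likewise apart. Hif1a had factors of 1.56 (1.25 to 1.95) and 2.95 (2.32 to 3.73). Without ribosomal and mitochondrial UMIs in the totals, the factors of Slc2a3 were 2.19 and 2.66 and those of P4ha1 1.99 and 2.20, while the interval of Slc2a1 in the PPARg-low library (1.64, 0.958 to 2.85) then held 1. The intervals of Slc16a3 in both libraries then overlapped slightly (1.31 to 2.98 and 2.96 to 7.88), and those of Ero1l did not (1.13 to 2.70 and 2.87 to 8.20).

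Some enzymes went the other way within each library. Gapdh in ribosome-poor cells was at 0.579 (0.524 to 0.639) and 0.755 (0.666 to 0.854) of its level in ribosome-rich cells, and Ldhb at 0.452 (0.318 to 0.632) and 0.469 (0.290 to 0.720). The summed enzymes were near level, at 0.939 and 1.04, and at 0.780 and 0.763 once ribosomal and mitochondrial UMIs were left out of the totals. Over all genes the median factor was 1.25 and 1.43. Because ribosome-poor cells had fewer UMIs and a larger mitochondrial share in both libraries, as given above, state and RNA quality cannot be told apart in these factors.

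A balance between paralogs does not depend on the total. Ldhb was 12.4% (10.6 to 14.3%) of lactate dehydrogenase UMIs in ribosome-rich PPARg-low cells and 5.12% (3.77 to 6.77%) in ribosome-poor ones. In the PPARg-negative library it was 9.97% (9.03 to 11.0%) and 4.46% (2.82 to 6.68%). Thus the ribosome-poor cells of both libraries had the lower Ldhb share, with intervals that did not overlap those of ribosome-rich cells, while the libraries overlapped within each kind. No such shift was seen for the glucose transporters, where Slc2a3 held 69.0 and 74.8% of the pair in the PPARg-low library and 73.7 and 75.9% in the other. Between libraries, the intervals of every paralog share overlapped.

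**Figure D3:**
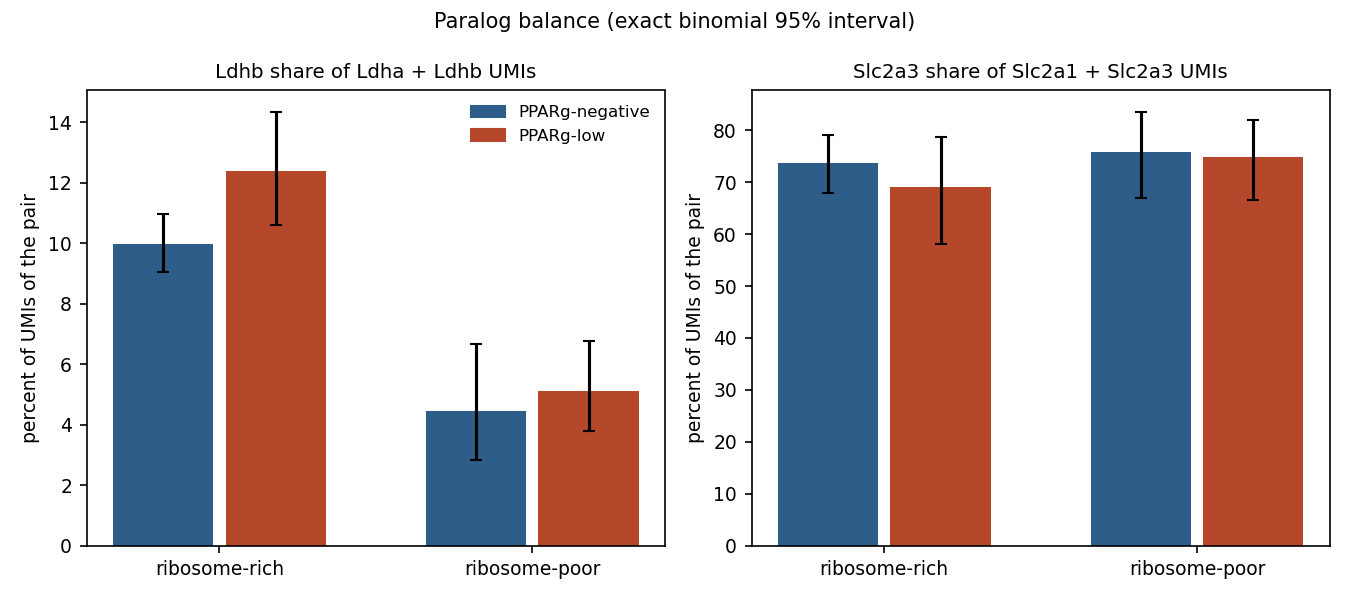
Share of Ldhb in the UMIs of Ldha and Ldhb (left) and of Slc2a3 in those of Slc2a1 and Slc2a3 (right), in percent, by kind of cell and library, with exact binomial 95% intervals. The Ldhb share is 12.4 and 9.97% in ribosome-rich and 5.12 and 4.46% in ribosome-poor cells of the PPARg-low and PPARg-negative library, while the Slc2a3 share stays between 69.0 and 75.9%.

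To compare single cells at a common depth, each cell was thinned to 750 UMIs, which left out 238 PPARg-low and 239 PPARg-negative cells. Most of these were ribosome-poor: 721 of 951 and 414 of 614 such cells remained, against 660 of 668 and 1980 of 2019 ribosome-rich cells. The 16 enzymes then gave a mean of 2.37 UMIs per cell over 1381 cells of the PPARg-low library and 2.13 over 2394 of the PPARg-negative library. Without thinning, and over all 1619 and 2633 cells, the means were 6.27 and 6.63, in the opposite order, with the median depths of 1517 and 2171 UMIs given above. At 750 UMIs 11.5% and 14.7% of cells had no enzyme UMI and the highest cell had 11. The variance of the UMIs per cell was 1.20 and 1.22 times the mean, where counting alone gives 1, and it was highest in ribosome-poor PPARg-negative cells, at 1.54 times.

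The oxygen sensing and hypoxia genes gave 0.450 and 0.434 UMIs per thinned cell, and 63.6% and 65.7% of cells had none. Without thinning, again over all cells of each library, the means were 1.03 and 1.27. Ribosome-poor cells of the PPARg-negative library had the most, 0.633 UMIs, against 0.480 in those of the PPARg-low library and 0.417 and 0.392 in ribosome-rich PPARg-low and PPARg-negative cells.

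**Figure D4:**
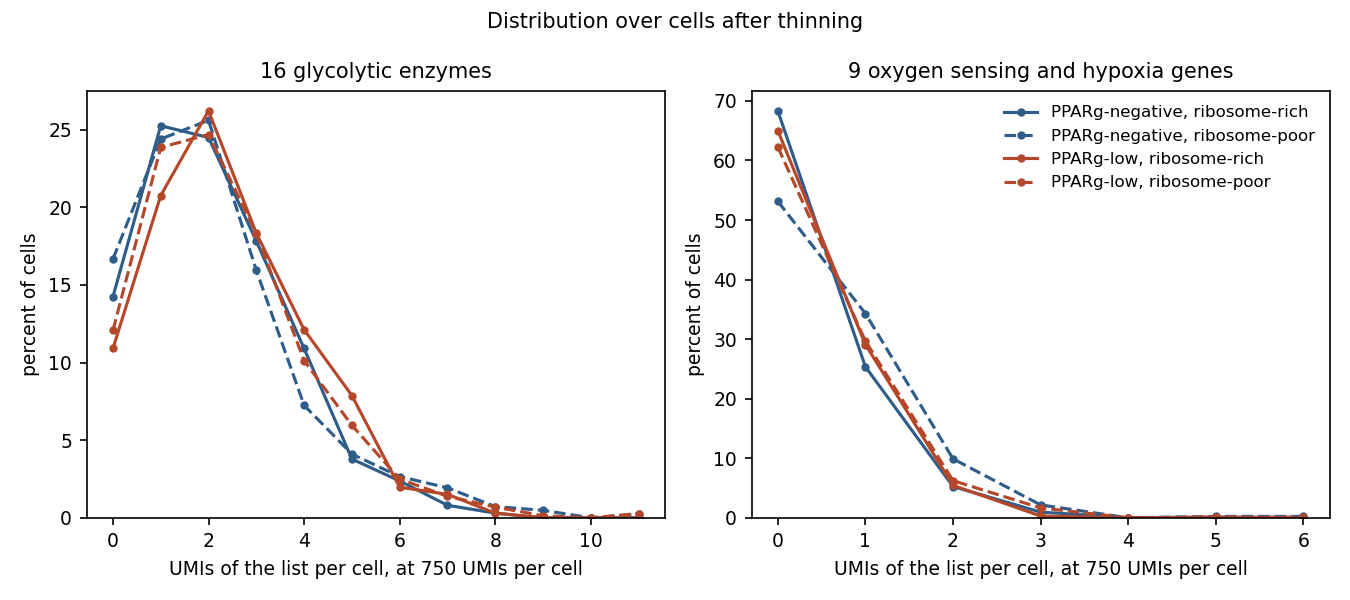
Percent of cells by the number of enzyme UMIs (left) and of oxygen sensing and hypoxia UMIs (right) per cell after thinning to 750 UMIs, for each library (colour) and kind of cell (solid, ribosome-rich; dashed, ribosome-poor). Each enzyme curve has 1 peak, and the ribosome-poor PPARg-negative cells have the fewest cells without a hypoxia UMI (53.1%).

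Levels also varied across 11 clusters, which were made without the members. Names were given from fixed markers only: cluster 1 was resting Treg-like (led by Ly6c1, Igfbp4 and Satb1), cluster 7 was like Tregs of nonlymphoid tissue (Gzmb, Ccr2 and Itgae), interferon genes led cluster 8, and cell cycle genes led cluster 10, of 26 cells. The others stayed unnamed, and 1 library gave over 80% of the cells of clusters 0, 1, 2, 4, 5, 8 and 9 (82.0% in cluster 4). Enzyme transcripts summed to 2619 CPM (2540 to 2700) in the resting Treg-like cluster 1, the lowest value, and to 4207 CPM (4045 to 4374) in cluster 5, led by Il10, Nkg7 and Il1r2, the highest of the clusters with 50 or more cells. The 26 cells led by cell cycle genes stood above all of these, at 5924 CPM (5553 to 6314). Without ribosomal and mitochondrial UMIs the values of clusters 1, 5 and 10 were 4609, 5462 and 7942 CPM, and cluster 0, led by Trf and Pdcd1, was lowest at 3949 CPM.

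Single members traced these differences. Ldha was at 1014 CPM in cluster 5, 1114 CPM in the cell cycle cluster and 911 CPM in the nonlymphoid Treg-like cluster 7, against 533 to 759 CPM in the others. Gapdh was at 1614 CPM and Tpi1 at 231 CPM in the cell cycle cluster, against 487 and 22.7 CPM in the resting Treg-like one. Slc16a3 was at 61.2, 54.6 and 48.6 CPM in clusters 5, 7 and 0 and at 3.78 CPM, from 6 UMIs, in cluster 1. Pdk1 ran opposite to it in several clusters, with 79.4 CPM in cluster 1 and 16.5 CPM, from 10 UMIs, in cluster 5, although cluster 3, led by Ccl5 and Cxcr3, held 91.9 CPM.

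The oxygen sensing and hypoxia genes had another order, given here with totals over all UMIs. They were highest in cluster 7, at 857 CPM (754 to 969), where P4ha1 was at 119 CPM, Ddit4 at 297 CPM and Egln3 at 30.7 CPM, the last from 9 UMIs. They were lowest in the cell cycle cluster, at 413 CPM (319 to 525), the cluster with the most enzyme transcripts. Part of this order rested on the scaling. With all UMIs, clusters 1, 0 and 3 were at 563, 589 and 662 CPM. Without ribosomal and mitochondrial UMIs they were at 991, 795 and 890 CPM, so that cluster 1 passed the other 2. With all UMIs, the ratio of the highest to the lowest cluster of 50 or more cells was 1.81 for the hypoxia genes and 1.61 for the enzymes. Both ratios were smaller with 3 coarser clusters, at 1.25 and 1.34.

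**Figure D5:**
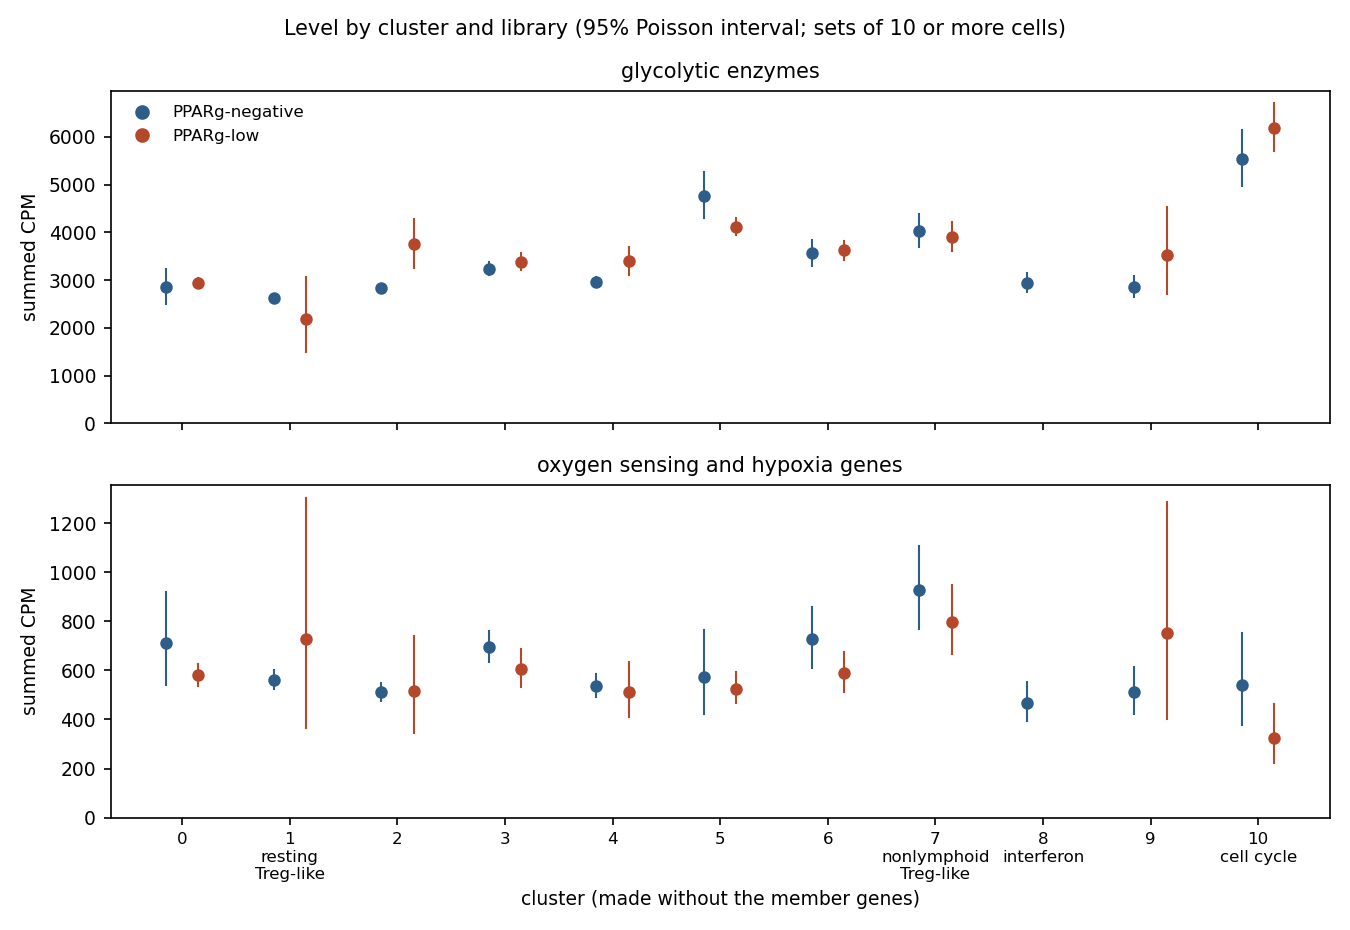
Summed CPM of the 16 enzymes (top) and the 9 oxygen sensing and hypoxia genes (bottom) by cluster and library, with 95% Poisson intervals, for sets of 10 or more cells. The cell cycle cluster 10 is highest for the enzymes, at 5924 CPM over both libraries, and the nonlymphoid Treg-like cluster 7 is highest for the hypoxia genes, at 857 CPM.

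Within the 5 clusters that held 50 or more cells of each library the summed enzymes were nearly level, with PPARg-low over PPARg-negative ratios from 0.968 to 1.15. The interval excluded 1 in cluster 4 alone (1.15, 1.04 to 1.26), and the ratio over all cells, 1.18, lay above the upper bound in clusters 3, 6 and 7 (1.12, 1.12 and 1.09). For the hypoxia genes the 5 ratios ran from 0.810 to 0.953, and every interval held 1. With the 3 coarser clusters, the enzyme ratios were 1.22 (1.13 to 1.31) in the resting Treg-like, 0.964 (0.903 to 1.03) in the effector Treg-like and 1.10 (1.04 to 1.16) in the nonlymphoid Treg-like cluster. Those of the hypoxia genes were 1.09 (0.909 to 1.30), 0.796 (0.689 to 0.924) and 0.810 (0.710 to 0.924), so that 2 intervals lay below 1. Of 94 pairs of a member and a cluster with 20 or more UMIs, 86 had an interval that held 1. Of the others, 5 lay above (Hk1, Gpi1, Aldoa in 2 clusters and Gapdh) and 3 below (Eno1, Ldha and Slc16a3). Among so many intervals some miss 1 by counting error alone, and the same count over all genes is not given here. The named genes can therefore not be told apart from such misses. Pairs in cluster 0, with 54 PPARg-negative cells, often had few UMIs from that library. An interval that held 1 there does not show a level gene. Pdk1 had 20 or more UMIs in 3 of the clusters, with 0.646 (0.402 to 1.01) in cluster 3, 0.615 (0.257 to 1.27) in cluster 4 and 1.20 (0.305 to 10.3) in cluster 0, where only 2 UMIs came from PPARg-negative cells. Slc16a3, higher by size over all cells, had 20 or more UMIs in clusters 0 and 6, with ratios of 0.351 (0.175 to 0.779) from 47 and 10 UMIs and 0.434 (0.159 to 1.15) from 9 and 11. Tpi1 was above 1 in all 5 clusters, from 1.10 to 1.86, with intervals that held 1.

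Other genes of glucose metabolism come from lists around the members, to be read against the 24.3% of all genes that were higher and the 4.38% that were lower. Of 7 genes of the pentose phosphate pathway, which makes NADPH and ribose, 2 were higher by size (28.6%): Tkt, transketolase, at 208 and 118 CPM (1.76, 1.58 to 1.97) and Pgd at 43.4 and 28.0 CPM (1.55, 1.22 to 1.97). Of 12 genes of pyruvate entry into mitochondria 1 was higher (8.33%), the Pdk1 relative Pdk3, at 37.6 and 19.5 CPM (1.93, 1.47 to 2.53), so that this pair of kinase genes differed in opposite directions. Of 16 measured genes of glycogen and sugar phosphate side branches 7 were higher (43.8%), led by Galm (2.56, 1.99 to 3.30), Bpgm (2.23, 1.73 to 2.88) and Gbe1 (1.78, 1.31 to 2.41), and 1 was lower. This was Gpd2, the mitochondrial glycerol phosphate dehydrogenase, at 5.17 and 10.5 CPM (0.492, 0.260 to 0.875), named after its value was seen. Of 6 other transport genes 4 were higher (66.7%), among them Bsg, the chaperone that brings MCT1 and MCT4 to the cell surface, at 313 and 201 CPM (1.56, 1.43 to 1.70), Slc2a8 (3.50, 1.90 to 6.64) and Arrdc4 (2.26, 1.48 to 3.46).

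Of 11 measured HIF pathway regulators 2 were higher (18.2%), Cited2, which competes with HIF-1α for its coactivators, at 187 and 80.04 CPM (2.33, 2.06 to 2.65), and Cul2 (1.57, 1.07 to 2.30). Of 16 further hypoxia targets 6 were higher (37.5%) and none lower, led by the repressor gene Bhlhe40 at 54.5 and 4.92 CPM (11.1, 7.42 to 17.1), Hmox1 at 11.7 and 0.848 CPM (13.8, 5.38 to 45.3) and Plin2 (2.36, 1.83 to 3.04). Bhlhe40 is also on the list of effector Treg markers, all 14 of which were higher in PPARg-low cells. Among 17 genes of mTOR and Myc control, Mtor (1.81, 1.09 to 2.99) and Mxd4 (1.52, 1.36 to 1.69) were higher and Pik3ip1, an inhibitor of PI3 kinase, was lower, at 52.4 and 131 CPM (0.400, 0.334 to 0.477).

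Groups of genes outside glucose metabolism also differed between the libraries. Of 13 measured early response genes, which tissue dissociation is known to raise, 10 were higher in PPARg-low cells, led by Hspa1a (19.3, 10.6 to 38.5), Fos (14.98, 9.99 to 23.3) and Ier3 (28.5, 9.09 to 143). Of 8 glucocorticoid targets 6 were higher, led by Dusp1 (5.58, 4.80 to 6.50), Fkbp5 (2.59, 2.06 to 3.26) and Klf9 (2.65, 1.75 to 4.04), and 1, Tsc22d3, was lower (0.626, 0.565 to 0.693; named after its value was seen). Of 20 cell cycle genes 13 were higher over all cells and 17 in ribosome-rich cells, while in ribosome-poor cells 2 were higher and 7 lower. The part of these groups in the member differences was not tested. Without the cell cycle cluster, 6 enzymes remained higher by size and the summed log2 ratio of the enzymes was 0.22. That cluster held only 26 cells, so leaving it out does not test the part of cycling cells.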

How the data were processed

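Single-cell 3′ libraries (Chromium v2) were made from pooled, sorted Tregs, 1 library per group. The authors deposited raw UMI counts per gene and barcode, with no normalization; Cell Ranger 2.1.0 and the mm10 build are named in the submitters' processing notes. The annotation behind these counts is not given in the sources used here. Cells of the PPARg-low group are called low by its label, but the names of its files say pos; the label was followed, and the conflict could not be settled.

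Barcodes above a mitochondrial share of 10% were removed (373 in the PPARg-low and 269 in the PPARg-negative library); the minimum of 200 genes left out 0. Doublets marked by Scrublet (11 and 8 cells) were kept. Counts were summed per library and given as CPM, with exact Poisson intervals; ratios have exact conditional binomial and shares exact Clopper-Pearson intervals. A gene with 20 or more UMIs was called higher or lower by size at a ratio of 1.5 and an interval that did not hold 1. With 1 library per group there is no p-value, and cells did not serve as replicates. The calculation of the ratio and its interval was checked on simulated Poisson counts. The interval assumes such counts, so the check does not cover spread between cells or libraries. Clusters used 2000 variable genes without the members, 20 components, 15 neighbours and the Leiden method (resolution 1.0), with no batch correction; a name needed 3 of the 10 leading genes on 1 marker list. Promoters are RefSeq windows of 300 bases (29 of 32 members matched).

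The members, lists and the split at a 20% ribosomal share were chosen with earlier results of these data known. All measured members were named, with up to 3 called genes of each other list by the interval bound nearest to 1; other genes named as markers, or said to be named after their values were seen, fall outside that rule. Some marker values are not reported here. Alternatives covered cell filters, scaling, cell weights, thinning, thresholds and clusters. Tools were scanpy 1.11.5 and leidenalg 0.10.2 under Python 3.11.15, with scipy 1.17.1, numpy 2.4.6, matplotlib 3.10.9 and pandas 2.3.3.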

Additional observations from a re-analysis of the deposited data

How the results depend on the processing

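No paired analysis was possible because each group is 1 library with no replicate number, and for the same reason no library could be left out. The main limits are the ribosome-poor share, the scaling and the counting depth of members under 100 UMIs. In ribosome-poor cells alone the log2 ratio changed sign for 7 measured members: 3 that were called, Aldoc (-0.37), Pgam1 (-0.052) and Hif1a (-0.044), and 4 that were not, Slc2a1 (-0.48), Slc2a3 (-0.57), P4ha1 (-0.56) and Pgk1 (0.13). There 0 enzymes and 0 oxygen sensing and hypoxia genes were higher, with 2 of the latter lower. The cause was not tested.

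Against 6 enzymes higher by size, 3 were higher when set relative to the all-gene median and 2 at a ratio of 2. Against 0 lower, 1 enzyme was lower without ribosomal and mitochondrial UMIs, relative to the median, with every cell weighted equally and after thinning to 750 UMIs. Against 0 hypoxia genes lower, 1 was lower with no mitochondrial limit, under both other scalings, after thinning and in ribosome-rich cells. Apart from ribosome-rich cells, the share of all genes called under these settings is not given here. These counts therefore do not set the members apart from other genes. The median log2 ratio of the enzymes, 0.42, was 0.16 without ribosomal and mitochondrial UMIs, 0.13 relative to the median of all genes, 0.55 among ribosome-rich and 0.15 among ribosome-poor cells. Their summed log2 ratio, 0.24, was -0.015, -0.050, 0.28 and 0.14 under these settings, 0.14 with cells weighted equally and 0.15 after thinning. The PPARg-low over PPARg-negative ratio of UMIs per cell was 1.11 for the enzymes and 1.04 for the hypoxia genes after thinning. Without it, and with the shallow cells included, the ratios were 0.947 and 0.811. With cells under 15% set against cells over 25% ribosomal UMIs, the enzymes of ribosome-poor over ribosome-rich cells moved from 0.939 to 0.886 in the PPARg-low and from 1.04 to 0.959 in the PPARg-negative library. At a Leiden resolution of 0.5 the ratio of the highest to the lowest cluster moved from 1.61 to 1.34 for the enzymes and from 1.81 to 1.25 for the hypoxia genes. A minimum of 500 genes, no mitochondrial limit, and leaving out marked doublets, shared barcodes or the cell cycle cluster kept all 29 member ratios within their intervals; without shared barcodes (an alternative added after seeing the data) 5 enzymes were higher.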
